A study of Mus musculus with 39 samples.

Results

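Gnas, Nnat, Peg10, Sgce, Mest, Plagl1, Impact, Igf2r, Grb10 and Zrsr1 are 10 imprinted mouse genes that lie outside chromosome 7, the chromosome whose parental origin was manipulated in this study. They were picked by symbol as known imprinted genes and matched to the Ensembl identifiers of the count tables, so that 10 of 53379 gene rows were followed. Imprinted genes are transcribed mainly or only from 1 parental copy in at least some tissues. Which copy is used can differ between tissues, as in Grb10. Many imprinted genes govern fetal growth, and several are strongly transcribed in the developing brain.

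The libraries came from Mosaic Analysis with Double Markers (MADM), in which Emx1-Cre, active in the dorsal telencephalon lineage that forms the neocortex, recombines the MADM-7-GT and MADM-7-TG cassettes on chromosome 7. A division after recombination between the homologs can leave a green (GFP+) and a red (tdT+) daughter, each with both chromosomes 7 from the same parent (uniparental disomy, UPD), whereas yellow (GFP+/tdT+) cells keep 1 chromosome 7 of each parent. Red, green and yellow cells of single embryos of mixed C57BL/6J, CD1 background were sorted, 200 to 400 cells per library, and sequenced by Smart-Seq2 from polyadenylated RNA at embryonic day 13 (E13) or 16 (E16). Every cell carries Cre and both cassettes, and every chromosome other than 7 is biparental in all colours, so the 10 genes were present as 1 maternal and 1 paternal copy everywhere. Paternal UPD (patUPD) cells were red in replicates 1 to 3 and green in replicates 4 and up, and maternal UPD (matUPD) cells carried the other colour. This assignment was given with the gene list and is not in the sample labels. The study's sample sheet lists yellow E16 replicate 3 under the other cross than red and green replicate 3, so these may not be 1 embryo.

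Of 39 libraries, 36 had at least 40% uniquely aligned reads (50.5 to 66.0%) and were used, with 5 per colour at E13 and 7 per colour at E16. They held 472924 to 5205788 gene counts and detected 7858 to 13768 genes, and a count of 3 corresponded to 0.576 to 6.34 CPM, the count scaled to the library's total. Yellow E16 replicate 7 (7858), red E16 replicate 5 (8803), red E16 replicate 6 (9210), green E13 replicate 4 (9610) and yellow E13 replicate 2 (9655) had the fewest detected genes, and all but green E13 replicate 4 are among the libraries that the study left out. Marker genes of the cortical lineage were present, since summed over an embryo 10 radial glia genes reached 789 to 2903 CPM and 10 projection neuron genes 4988 to 9882 CPM. The 5 microglia genes were each at 0 in 29 to 36 of 36 libraries, but summed to a median of 30.3 CPM in yellow E13 libraries, with single genes up to 48.8 CPM. The 5 endothelial genes were each at 0 in 32 to 34 of 36 libraries, with Kdr up to 134 CPM in 1 library.

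Grb10 (ENSMUSG00000020176.17, GRCm38 chromosome 11, 11930508 to 12038683, minus strand) encodes an adaptor protein that dampens signalling of the insulin and insulin-like growth factor receptors. It is transcribed from the maternal copy in most tissues and from the paternal copy in neurons, where other start sites are used. Grb10 was the one member past the threshold when counts summed per embryo were compared between the ages, and the 250 bases before 2 of its RefSeq start sites are printed to show how unlike these regions are. They lie at chr11:12037421-12037670 and chr11:12027972-12028221 on the minus strand of GRCm38.p6, written 5′ to 3′ with each CG dinucleotide, the letters at which DNA methylation is set, in capitals.
Grb10 site 1: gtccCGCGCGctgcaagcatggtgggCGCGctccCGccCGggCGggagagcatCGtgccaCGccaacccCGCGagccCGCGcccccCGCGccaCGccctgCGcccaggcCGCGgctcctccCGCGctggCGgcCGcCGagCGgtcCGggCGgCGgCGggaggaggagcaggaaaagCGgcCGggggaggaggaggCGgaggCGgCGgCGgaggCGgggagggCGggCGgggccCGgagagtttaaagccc
Grb10 site 2: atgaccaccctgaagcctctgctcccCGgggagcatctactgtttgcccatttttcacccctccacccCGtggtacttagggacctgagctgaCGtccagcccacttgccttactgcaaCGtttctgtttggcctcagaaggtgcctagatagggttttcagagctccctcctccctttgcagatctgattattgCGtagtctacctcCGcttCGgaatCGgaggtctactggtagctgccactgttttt
The first stretch held 40 CG dinucleotides, a number reached by 1.31% of the 32851 RefSeq windows of the same length, and the second held 8, reached by 43.0%, against a median of 6.0. CG reads the same on both strands, and the match is a description of the letters only. Reads were counted per gene, so the level from each start site was not measured.

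The other members fall into 3 groups by function. Igf2r, which clears insulin-like growth factor 2 from the cell surface, and Gnas, which encodes the stimulatory G protein alpha subunit, act with Grb10 in growth factor and hormone signalling. Plagl1 (a zinc finger transcription factor), Impact (a regulator of the translation kinase Gcn2) and Zrsr1 (related to a splicing factor and located in an intron of Commd1) act in gene regulation. Nnat (neuronatin, a small membrane protein of the endoplasmic reticulum), Sgce (epsilon-sarcoglycan), Mest (a hydrolase family protein) and Peg10 (derived from a retrotransposon) make up the rest.

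How reads were assigned decided whether Gnas appeared to be transcribed at all. The tables give each gene 1 count that ignores strand, in which a read over exons of 2 genes is discarded as ambiguous, and 1 count for each strand, in which only genes of that strand compete. The 2 strand counts were added as an alternative chosen after the data had been seen. Gnas (ENSMUSG00000027523.19, chromosome 2, 174284320 to 174346744, plus strand) had 263 counts over 36 libraries without strand and 37768 with the strand counts summed, 144-fold more. Its antisense neighbour Gm20721, which shares 1469 exon bases with it, went from 0 to 37502 counts. The library protocol does not keep strand, so reads of a gene and of its antisense partner cannot be told apart, and the 37505 counts added to Gnas and the 37502 counts added to Gm20721 are nearly the same number.

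A smaller change of the same form was seen in Nnat and Mest. Nnat (ENSMUSG00000067786.16, chromosome 2, 157560078 to 157562522, plus strand) went from 23376 to 53431 counts, 2.29-fold, and the 30055 counts added equalled those added to Gm23134, a microRNA gene on the other strand. Mest (ENSMUSG00000051855.15, chromosome 6, 30723547 to 30748465, plus strand) went from 3122 to 9193 counts, 2.94-fold, and 6028 counts were added to the opposing Copg2, itself imprinted. Zrsr1 went from 3445 to 3691 counts, 1.07-fold, and the other 6 members had the same count both ways. Among 12197 genes with a mean of at least 10 summed counts the median ratio was 1.0, 10.4% exceeded 1.5-fold and 2.44% exceeded 100-fold. Values below are from the count without strand unless the summed strands are named.

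**Figure D1:**
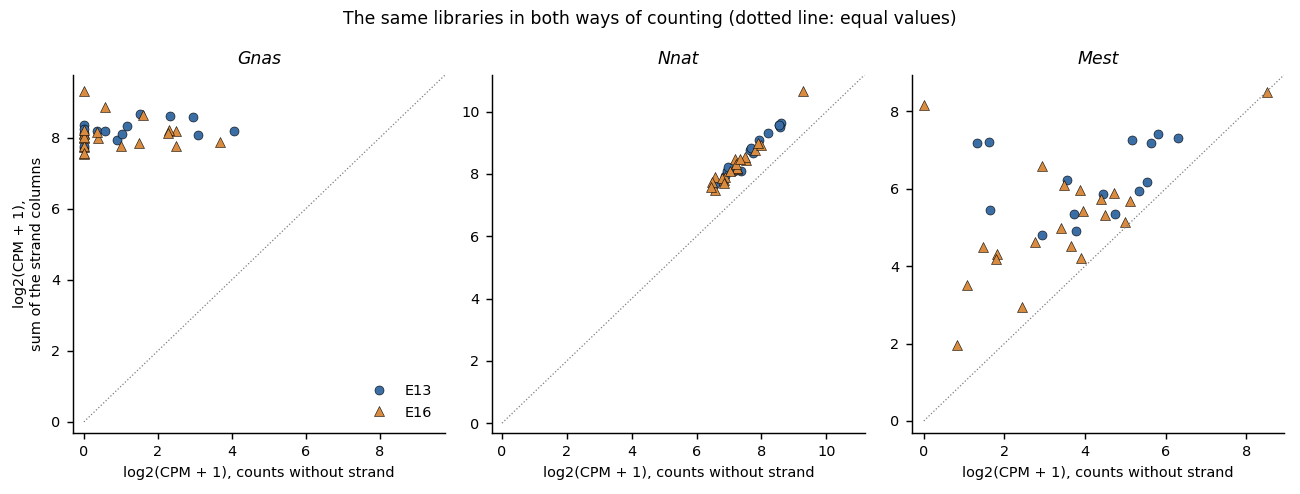
Level of Gnas, Nnat and Mest in each of the 36 libraries, as log2(CPM + 1) from the count without strand on the x axis and from the summed strand counts on the y axis. Circles are E13 and triangles E16 libraries, and the dotted line marks equal values. Gnas lies far above the line in every library, 15 of them at 0 on the x axis, and Nnat and Mest lie nearer to it.

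Levels of the members in yellow cells, as median CPM per kilobase of exon, spanned several orders of magnitude. At E13 the order was Nnat (204), Plagl1 (38.3), Grb10 (23.9), Impact (14.6), Sgce (3.75), Mest (2.72), Zrsr1 (2.5), Igf2r (0.169), Gnas (0.113) and Peg10 (0). Of these neighbours only Nnat and Plagl1, and Impact and Sgce, had ranges that did not overlap over the 5 libraries. At E16 the order was Nnat (81.8), Plagl1 (19.2), Impact (12.6), Sgce (6.12), Mest (5.10), Zrsr1 (4.71), Grb10 (4.54), Igf2r (0.123), Gnas (0.09) and Peg10 (0), and only Impact and Sgce had ranges apart over the 7 libraries. Grb10 moved from rank 3 at E13 to rank 7 at E16.

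With the strand counts summed, Gnas took rank 3 at E13 (26.0 CPM per kilobase) and rank 2 at E16 (22.9 CPM per kilobase), instead of rank 9 at both ages. The length used was 11186 bases, all annotated Gnas exons joined. The coding transcript with the largest share in Gm20721 exons (85.4%) is 1716 bases long. The rank therefore depends on the length used, and the level of each transcript was not measured. In CPM from the summed strands, Gnas was 324, 383, 216, 273 and 290 in yellow E13 replicates 1, 2, 4, 5 and 6, and between 216 and 636 with a median of 257 in the 7 yellow E16 libraries. No library was at 0, whereas 15 of 36 were at 0 in the count without strand, where the highest value was 15.5 CPM. Peg10 was at 0 in 31 of 36 libraries with a highest value of 3.33 CPM and Igf2r in 6 of 36, so little can be said of either at this depth.

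**Figure D2:**
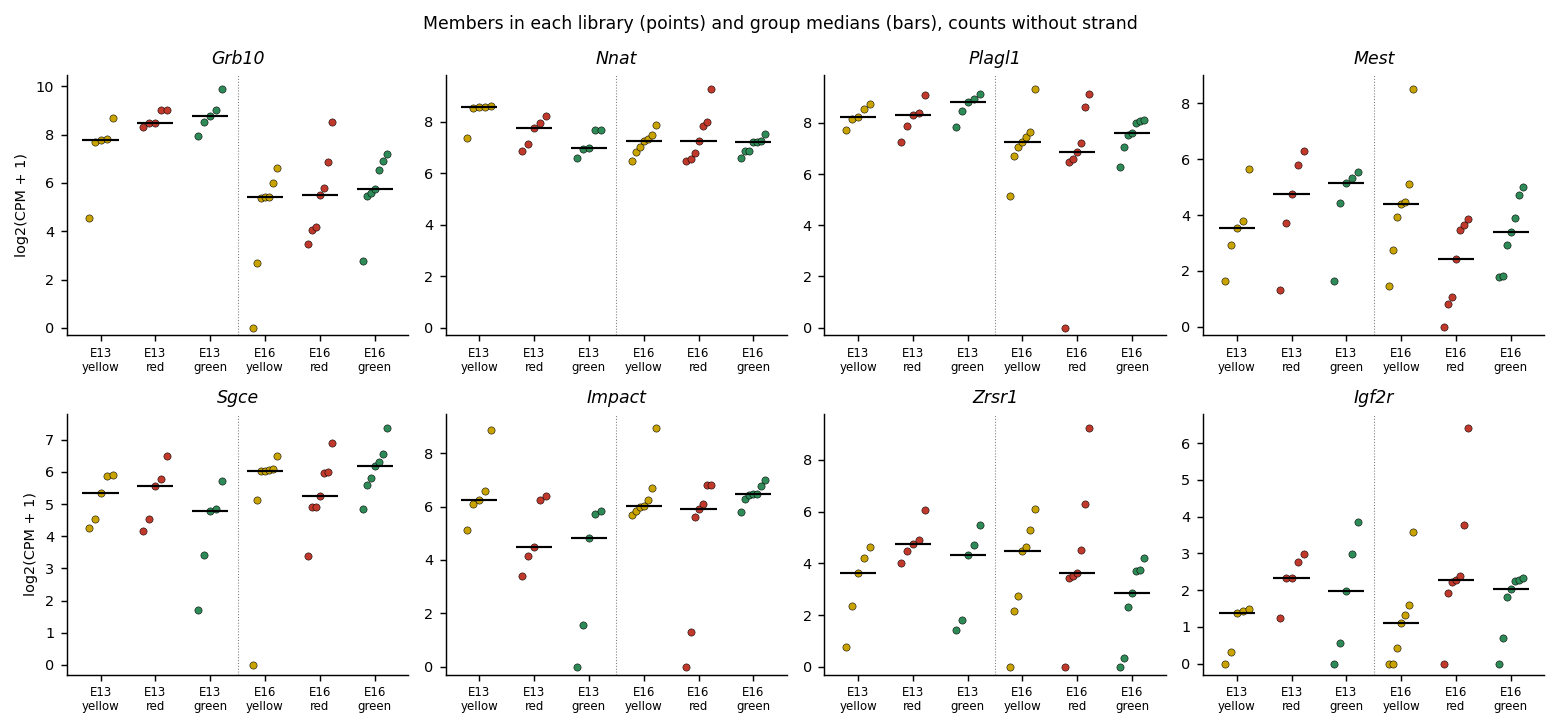
Level of 8 members in each library as log2(CPM + 1) from the count without strand, by age and colour, with points for libraries and bars for group medians. Grb10 has lower medians at E16 than at E13 in each colour, and Plagl1, Mest, Impact and Igf2r each have a yellow E16 library far above the others of that group.

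Between the ages, Grb10 fell in counts summed per embryo, where no other member passed the threshold. Summed over the colours of an embryo, Grb10 was at 399, 300.4, 373, 486, 204 and 349 CPM in E13 embryos 1 to 6, and at 29.2, 30.3, 38.8, 80.9, 172, 61.7 and 6.65 in E16 embryos 1 to 7. The sums were unlike in colour, since E13 embryo 5 was a single yellow library and E13 embryo 3 held red and green only. The lowest E13 embryo lay above the highest E16 embryo, so that the ages did not overlap, which held for 2.93% of 13776 genes tested. The means were 352 ± 95.2 (SD, n = 6) and 59.9 ± 54.8 (SD, n = 7), and the fitted log2 fold change was -2.40 (SE 0.51, adjusted p = 0.0156, edgeR quasi-likelihood test with Benjamini-Hochberg adjustment). Over all alternatives and with each embryo left out in turn the adjusted p was between 1.28e-05 and 0.0384. Without E16 embryo 5, whose red library stood apart, the log2 fold change was -2.99, and without E13 embryo 3 or 5 it was -2.39 or -2.51.

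In yellow cells alone Grb10 was at 410, 22.5, 218, 207 and 225 CPM in E13 replicates 1, 2, 4, 5 and 6, and at 5.38, 41.2, 62.5, 41.2, 98.4, 41.1 and 0 CPM in E16 replicates 1 to 7. E13 replicate 2 lay within the E16 range and the other 4 lay above it. The log2 fold change was nearly the same, -2.39, but with an SE of 0.90 it did not pass (adjusted p = 0.346), and 0.149% of 11378 genes were called in this comparison. Without the libraries that the study left out it was -2.46 with an adjusted p of 0.0284. Red cells held 316 to 521 CPM at E13 and 10.1 to 363 CPM at E16, and green cells 243 to 949 and 5.85 to 148 CPM.

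Markers of other cells also differed between the ages. In the summed embryos 5 mesenchyme and pericyte genes reached 16.6 to 582 CPM at E13 and 2.32 to 7.19 CPM at E16, and 6 interneuron genes 17.0 to 141 and 0.14 to 13.9 CPM. The 10 radial glia genes overlapped between the ages (1853 to 2769 and 789 to 2903 CPM), with medians of 2160 at E13 and 1560 at E16. So did the 5 intermediate progenitor genes (267 to 633 and 141 to 449 CPM, medians 464 and 298). The 10 projection neuron genes also overlapped (4988 to 8017 and 7099 to 9882 CPM, medians 5579 and 8342), as did the 5 red blood cell genes (0.34 to 10440 and 4.53 to 2113 CPM). Overlapping ranges do not show an equal make-up of cells. Grb10 was 515 and 225 CPM in the red and yellow E13 replicate 6 libraries, in which the mesenchyme and pericyte genes summed to 0. It was 243 CPM in the green library of that embryo, in which they summed to 51.3 CPM. In green E13 replicates 4 and 1 and red E13 replicate 1 these genes summed to 404, 371 and 746 CPM. Grb10 was 949, 523 and 354 CPM there. In yellow E13 replicates 2 and 5 and red E13 replicate 2 they summed to 95.0, 28.5 and 25.1 CPM. Grb10 was 22.5, 207 and 316 CPM in these. The part of these lists in the Grb10 result was not tested, and in pooled cells fewer cells of a type and less RNA per cell cannot be told apart.

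Counted over the summed embryos, 9 of 10 members passed the filter of a mean count of 10, with Peg10 left out, and 1 of 9 (Grb10) was called, against 3.8% of 13776 genes in either direction and 1.88% lower. Their median log2 fold change was 0.52, against 0.03 over all genes, with 5 positive and 4 negative. This median is the value of Mest, which was -0.24 with the strand counts summed, where Gnas was at 0.08 instead of -0.40. The median thus depended on the count used. Of the 9, 2 (Grb10 and Sgce) had an unadjusted p under 0.05, against 19.3% of all genes. In yellow cells 8 members passed the filter, with Peg10 and Igf2r left out, 0 were called by edgeR or DESeq2 and the median was -0.42, against -0.06 over all genes. In yellow cells, 2 of these 8 had an unadjusted p under 0.05 by edgeR, against 8.69% of all genes. Of the other imprinted genes outside chromosome 7, 25 were tested in the summed embryos, of which 6 had an unadjusted p under 0.05 and the lowest adjusted p was 0.0623. Of the Dlk1-Meg3 locus, 5 genes were tested, with a lowest adjusted p of 0.152.

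Among the regulators, Plagl1 was at 227 to 462 (median 307) CPM in E13 embryos and 106 to 308 (median 141) in E16 embryos. The ranges overlapped, and the log2 fold change of -0.57 (SE 0.31, adjusted p = 0.333) did not pass. In limma's voom fit over single libraries, with the embryo as a random block, it was -1.43 with an adjusted p of 0.0417. Impact was at 19.1 to 198 (median 52.3) and 45.8 to 251 (median 62.7) with a log2 fold change of 0.66 (SE 0.51, adjusted p = 0.531). Zrsr1 was at 13.8 to 31.4 in E13 embryos and spread from 0.678 to 157 in E16 embryos, so its log2 fold change of 1.01 carried an SE of 0.85 (adjusted p = 0.568) and was -0.25 without E16 embryo 5.

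Nnat was at 130 to 373 (median 257) CPM in E13 embryos and 109 to 232 (median 147) in E16 embryos. In yellow cells it was at 165, 373, 391, 378 and 370 CPM in E13 replicates 1, 2, 4, 5 and 6, and 88.5 to 235 (median 150) CPM in the 7 E16 libraries. Replicate 1 alone lay within the E16 range. The yellow log2 fold change was -1.16 (SE 0.34, adjusted p = 0.263), and that of the summed embryos -0.51 (SE 0.25, adjusted p = 0.279). Without the libraries that the study left out the yellow value was -1.25 with an adjusted p of 0.0376, and with the strand counts summed -1.05 with an adjusted p of 0.292.

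Sgce was at 17.9 to 55.6 (median 36.8) in E13 embryos and 35.1 to 91.3 (median 50.7) in E16 embryos, a log2 fold change of 0.83 (SE 0.33, adjusted p = 0.160) between ranges that overlapped. Mest had lower medians at E16 (8.53 against 18.6) but 164 in E16 embryo 7, and its log2 fold change was 0.52 (SE 0.83, adjusted p = 0.796), -1.30 without that embryo and -0.24 with the strand counts summed. In yellow cells it was 2.01 (SE 1.19), and -0.02 without E16 replicate 7. Igf2r was at 1.18 to 7.36 in E13 embryos and 0.748 to 22.2 in E16 embryos, with a log2 fold change of 0.93 (SE 0.91, adjusted p = 0.641), which was -0.02 without E16 embryo 5. Gnas, from the summed strands, was at 274 to 350 (median 289) and 214 to 510 (median 238), with a log2 fold change of 0.08 (SE 0.21, adjusted p = 0.892). An adjusted p above the threshold does not show equal levels.

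**Figure D3:**
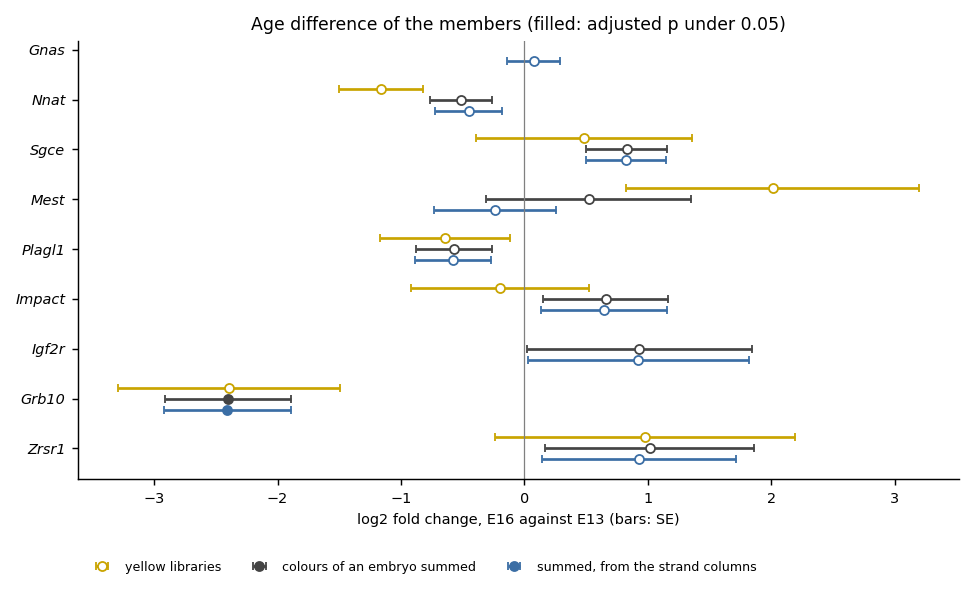
Log2 fold change of E16 against E13 for each tested member in yellow libraries (yellow), in counts summed per embryo (black) and in the same sums from the strand counts (blue), with bars of 1 SE. Filled symbols mark an adjusted p under 0.05. Gnas is shown from the strand counts only. Grb10 is filled in both summed fits, at -2.40 and -2.41, and open in yellow cells at -2.39.

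Singly coloured cells were compared with yellow cells of the same embryo to ask whether disomy of chromosome 7 in either direction went with a difference in these genes. No member passed the threshold (0 of 8 tested, edgeR, and 0 with DESeq2), 2 had an unadjusted p under 0.05 (6.46% of all genes had), and 13 of 11472 genes (0.113%) were called. The median log2 fold change of the members was 0.00, against -0.06 over all genes. Without the embryo block 68 genes were called. Gnas and Peg10 missed the filter in the count without strand.

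Grb10 and Impact had the unadjusted p under 0.05, in opposite directions. Grb10 was higher in singly coloured cells in 9 of 11 embryos (4 of 4 at E13 and 5 of 7 at E16), with a log2 fold change of 1.19 (SE 0.54, adjusted p = 0.714). Without the libraries that the study left out, among them the yellow libraries in which Grb10 was at 22.5 and 0 CPM, it was 0.74. Without E16 embryo 3, whose yellow library may come from another animal, the values were 1.44 for Grb10 and -1.55 for Impact. Impact was lower in 8 of 11 embryos, with differences of -1.96, -3.27, -3.46 and -2.37 on the log2 scale in E13 embryos 1, 2, 4 and 6 and from -2.96 to 1.22 in the E16 embryos. Its fitted log2 fold change was -1.40 (SE 0.60, adjusted p = 0.678), and -0.94 without the libraries that the study left out. In the same embryos the radial glia genes differed by 1.01 ± 0.780 (SD, n = 11) on the log2 scale, higher in singly coloured cells in 10 of 11, and the intermediate progenitor genes by 0.784, also in 10 of 11. Their part in the Grb10 and Impact values was not tested.

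The other tested members had log2 fold changes of -0.37 (SE 0.27) for Nnat, 1.67 (SE 1.25) for Igf2r, 0.63 for Zrsr1, 0.15 for Plagl1, -0.14 (SE 0.75) for Mest and -0.30 for Sgce. Nnat was lower in singly coloured cells in 4 of 4 embryos at E13 and higher in 4 of 7 at E16. Gnas from the summed strands had a log2 fold change of -0.05 (SE 0.18, adjusted p = 1). The difference between the ages in this contrast was tested as an interaction, where 0 members by edgeR or DESeq2 and 0.00872% of genes by edgeR were called, and 1 member (Mest) had an unadjusted p under 0.05, as did 4.01% of genes. Mest had an interaction of -3.39 (SE 1.59, adjusted p = 1), higher in singly coloured cells in 4 of 4 embryos at E13 and lower in 5 of 7 at E16. With the strand counts summed the Mest interaction was -1.30 (SE 0.99, unadjusted p = 0.199, edgeR), so its size and its unadjusted p depended on the count used.

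**Figure D4:**
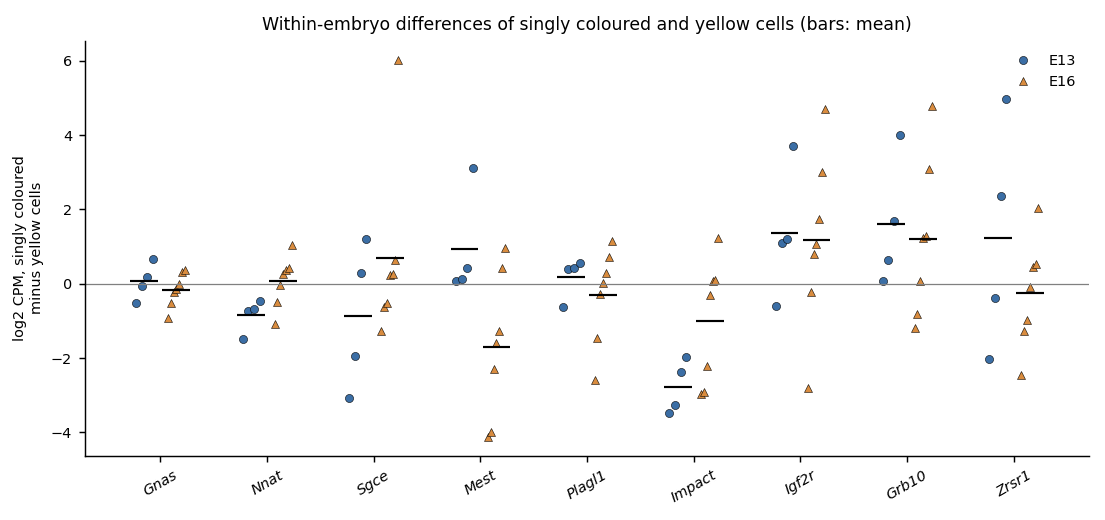
Difference in log2 CPM of singly coloured minus yellow cells within each embryo, with circles for 4 E13 and triangles for 7 E16 embryos and bars for their means. Gnas is from the summed strand counts. Impact lies below 0 in 4 of 4 E13 embryos and Grb10 above 0 in 9 of 11 embryos.

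The disomy comparison was first checked on imprinted genes of chromosome 7. Cdkn1c, a growth inhibitor transcribed from the maternal copy, was lower in patUPD than in matUPD cells in 12 of 12 embryos, by a mean of 5.10 on the log2 scale (SD 2.53). Snrpn and Ndn, transcribed from the paternal copy, were higher in 12 of 12 embryos by means of 3.75 and 4.46, and Peg3 in 11 of 12 by 4.72. The given assignment of colour to disomy thus matched these genes in direction. Colour and disomy are tied within replicates 1 to 3 and within replicates 4 and up, and cannot be told apart inside either set.

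None of the 8 tested members differed past the threshold between patUPD and matUPD cells (adjusted p = 1 for each, edgeR, and 0 called with DESeq2), 0 had an unadjusted p under 0.05 (2.58% of all genes had), and 7 of 11472 genes (0.061%) were called. The called genes, Snrpn, Ndn, Inpp5f, Mkrn3, Snhg14, Kcnq1ot1 and Cdkn1c, all lie on chromosome 7. The members' median log2 fold change was -0.37, against 0.00 over all genes, with 1 positive and 7 negative. These signs depended on the summary used. The mean within-embryo differences of Plagl1 (0.24) and Impact (0.11) were positive, whereas their fitted values were -0.16 and -0.66. Of the other imprinted genes outside chromosome 7, 20 were tested, with 1 at an unadjusted p under 0.05, and the lowest adjusted p of these and of 2 genes of the Dlk1-Meg3 locus was 1.

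Grb10 was lower in patUPD cells in 9 of 12 embryos, with a log2 fold change of -0.49 (SE 0.53). Nnat and Plagl1 were each lower in 8 of 12 embryos, with log2 fold changes of -0.26 and -0.16. Plagl1 was at 0 in red E16 replicate 6, which gave that embryo a difference of 8.68, and the log2 fold change without it was -0.52. The log2 fold changes were -0.13 for Sgce, 0.13 for Mest, -0.68 for Igf2r and -0.83 for Zrsr1, with SDs over the embryos of 1.71, 2.53, 2.21 and 3.38. Zrsr1 was at -0.11 without E16 embryo 5 and at -0.14 without E16 embryo 7. Gnas from the summed strands was the member with the least scatter, with a log2 fold change of 0.09 (SE 0.20) and a SD of 0.373 over the 12 embryos. Mest from the summed strands was lower in patUPD cells in 9 of 12 embryos, whereas the count without strand had it higher in 8 of 12. Its log2 fold change from the summed strands was -1.15 (SE 0.55, unadjusted p = 0.0461, adjusted p = 1, edgeR). In that count 2.59% of all genes had an unadjusted p under 0.05.

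The age difference of the disomy contrast was called for 0 of 11472 genes (0.0%) by edgeR, and 291 (2.54%) had an unadjusted p under 0.05 by edgeR, while DESeq2 called 207 genes and 0 members. Impact was the 1 member with an unadjusted p under 0.05, with an interaction of 3.38 on the log2 scale (SE 1.5, adjusted p = 1). Its fitted patUPD against matUPD difference was -2.35 at E13 and 1.03 at E16. The furthest embryos were E13 embryo 4 (-6.94), where the green library was at 0, and E16 embryos 5 (7.11) and 6 (5.40), where the red libraries were at 0 and 1.46 CPM.

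**Figure D5:**
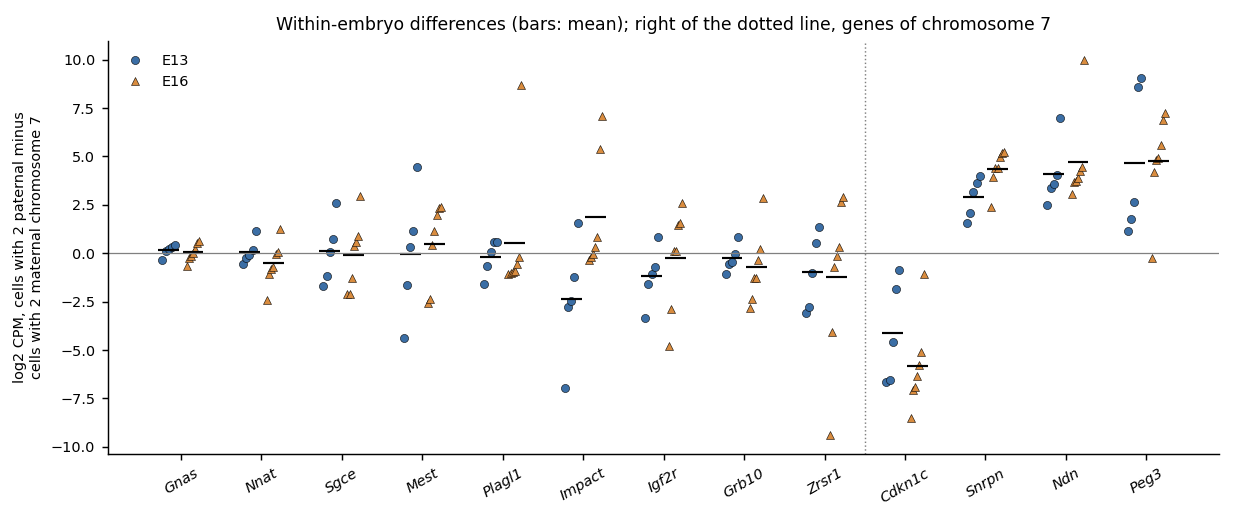
Difference in log2 CPM of patUPD minus matUPD cells within each embryo, with circles for 5 E13 and triangles for 7 E16 embryos and bars for their means. Gnas is from the summed strand counts, and genes right of the dotted line lie on chromosome 7. Cdkn1c lies below 0 and Snrpn and Ndn above 0 in 12 of 12 embryos, while each member has embryos on both sides of 0.

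The genes whose log2 CPM followed each member most closely over the 36 libraries were listed by Pearson's r among 11471 other genes. The mean of each age and colour was subtracted first, so r leaves out differences between these groups. The points share libraries and depth, and r is a description. For Grb10 they were Ptprg (0.81), Birc5 (0.79) and Mthfd2 (0.79), and for Igf2r Hspa4 (0.69), Hdx (0.67) and Kctd9 (0.66). For Plagl1 they were Slc30a9 (0.88), Rasa1 (0.88) and Bclaf1 (0.87), for Impact Krit1 (0.86), Brox (0.84) and Emsy (0.82), and for Zrsr1 Tab2 (0.82), Arnt2 (0.81) and Pramef8 (0.79). For Nnat they were Cdk5r1 (0.76), Marcks (0.70) and Anapc5 (0.70), for Sgce Ccndbp1 (0.82), Hnrnpf (0.80) and Usp16 (0.80), and for Mest Stx16 (0.72), Stam2 (0.68) and Mbnl2 (0.63). None of these was another member. Within the members the closest pair was Grb10 and Zrsr1 (r = 0.55), and red E16 replicate 5 was the highest E16 library of both. Counting Grb10 itself, 589 genes had a higher r with Grb10 than Zrsr1 had.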

How the data were processed

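Red, green and yellow MADM-7 cells of single embryos were sequenced by Smart-Seq2. The authors deposited raw counts per gene from STAR 2.5.0c (GeneCounts, uniquely aligned reads) on GRCm38 with Gencode annotation, combining technical replicates beforehand (SAMtools 1.8, bedtools 2.26.0 per the submitters' processing notes). The column without strand was used for 36 of 39 libraries with at least 40% uniquely aligned reads. Symbols came from a later Gencode release of the same build and matched 53274 of 53379 rows.

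Tests were edgeR 4.0.16 quasi-likelihood fits (R 4.3.3) with TMM normalisation and a mean count of at least 10, Benjamini-Hochberg adjustment over all genes tested and a threshold of 0.05. Ages were compared in yellow libraries and in counts summed per embryo. Singly coloured, yellow and disomy contrasts came from 1 fit of all 36 libraries with the embryo as a block, which contains the sample term of the study's design. Library CPM is TMM-normalised and embryo CPM is scaled to the summed gene counts alone. Libraries of the same age and replicate number were taken as 1 embryo, which paired the colours. Deviations from group means correlated weakly, at a mean of 0.0439 (E13) and 0.0294 (E16) within these embryos. The lowest value within an E16 embryo was -0.0398, and the means between embryos were -0.0092 and -0.0036. In limma's voom fit the correlation within embryos was 0.0012. Replicates are single embryos.

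The members and gene lists were chosen with earlier results of these data known. The 10 members were named in every comparison, other imprinted genes only past the threshold, and the 3 genes most like each tested member. Alternatives used DESeq2 1.42.0, limma 3.58.1, no filter, other library sets, no block, single ages and the summed strand columns. Fits were tested on simulated data. Counts without molecular identifiers limit precision beyond counting error.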

Additional observations from a re-analysis of the deposited data

Results flagged for a closer look

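Of 58 groups of member and colour at 1 age, 16 held a library far from the rest of its group. A rate of about 1 in 20 would apply to independent groups. These groups share libraries and some genes lie near 0, so the count cannot be set against that rate. Red E16 replicate 5 was the highest for Nnat (616 CPM, others 86.8 to 254), Igf2r (84.2, others 0 to 12.8), Grb10 (363, others 10.1 to 115) and Zrsr1 (597, others 0 to 77.3). Yellow E16 replicate 7 was the highest for Mest (367 CPM, others 1.75 to 33.7), Plagl1 (641, others 34.2 to 196), Impact (493.2, others 51.0 to 103) and Igf2r (11.0, others 0 to 2.01). Yellow E13 replicate 2 was the highest for Impact (470 CPM, others 34.2 to 94.2). These 3 libraries are among the 5 with the fewest detected genes and among those the study left out.

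Yellow E13 replicate 1 was the lowest for Nnat (165 CPM, others 370 to 391) and the highest for Mest (49.1 CPM, others 2.11 to 12.7). Red E13 replicate 2 was the highest for Zrsr1 (66.0 CPM, others 15.2 to 28.5), and yellow E16 replicate 4 the highest for Gnas in the count without strand (11.8 CPM, others 0 to 4.66). Peg10 was above 0 in a single library of yellow E13 (replicate 6, 3.33 CPM), red E13 (replicate 6, 0.214 CPM) and green E16 (replicate 7, 1.35 CPM).

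The strand counts, which the main comparisons did not use, assigned 144-fold more reads to Gnas, 2.29-fold more to Nnat and 2.94-fold more to Mest than the count without strand. An antisense gene gained nearly as many counts in each case, and the reads of the pair cannot be told apart.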

How the results depend on the processing

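The Grb10 fall with age in summed embryos kept its direction and its side of the threshold under every alternative run (-3.24 to -2.39) and with any embryo left out (-2.99 to -2.23). With the libraries the study kept, yellow Nnat (-1.25) and Grb10 (-2.46) passed the threshold, and with limma's voom over single libraries Plagl1 passed (-1.43). Of all single-gene values under these alternatives, 265 of 295 kept direction and call, as did 402 of 420 with an embryo left out.

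Counts of called genes moved more, and the cause was not tested. For age in yellow cells (17) they were 198 with DESeq2, 55 without a filter and 146 with the study's libraries. For age in summed embryos (524) DESeq2 gave 1271, and voom over single libraries 1230. For singly coloured against yellow (13), size factors of DESeq2 gave 20, DESeq2 438, no filter 66, the study's libraries 38, the replicate set in place of the embryo 40, and E13 or E16 alone 0 each. For disomy (7), DESeq2 gave 198, no filter 14, E13 alone 0, E16 alone 3 and the summed strands, chosen after the data were seen, 4. For the age difference of the singly coloured contrast (1) DESeq2 gave 222 and no filter 25, and for that of disomy (0) 207 and 4. With each embryo left out the counts were 1 to 31 (yellow), 297 to 570 (summed), 1 to 18 (singly coloured), 3 to 7 (disomy) and 0 to 1 (age difference of singly coloured).

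Without the replicate block, 68 genes were called for singly coloured against yellow and 0 for its age difference. No member was called with or without the block.

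Signs turned only for values that were not called. For age in yellow cells these were Gnas with summed strands (0.07), Mest with DESeq2 (-0.08) and the study's libraries (-0.29), and Impact with the latter (0.03). In summed embryos these were Gnas (0.08) and Mest (-0.24) with summed strands, Mest with DESeq2 (-1.20), the study's libraries (-0.76), a set term (-0.15) and voom (-0.72), Igf2r (-0.74) and Zrsr1 (-0.49) with the study's libraries, and Zrsr1 with voom (-0.82). For singly coloured cells these were Nnat (0.11) and Sgce (0.37) at E16 alone, Mest with the study's libraries (0.18), at E13 alone (1.56) and with summed strands (0.11), Plagl1 (-0.44) and Zrsr1 (-0.12) with all 39 libraries, and Zrsr1 with the study's libraries (-0.53). For disomy these were Nnat at E13 alone (0.07), Mest with the study's libraries (-0.23), at E13 alone (-0.01) and with summed strands (-1.15), and Impact (1.04) and Igf2r (0.45) at E16 alone. With 1 embryo left out, signs turned without E16 replicate 7 (Mest) and E16 replicate 5 (Igf2r and Zrsr1) in summed embryos, and without yellow E16 replicate 7 (Mest) and yellow E13 replicate 2 (Impact) in yellow cells. The age values in summed embryos ranged from -0.90 to 0.49 (Gnas), -1.30 to 0.97 (Mest), -0.02 to 1.22 (Igf2r) and -0.25 to 1.22 (Zrsr1). Gnas turned without E13 replicate 6. The age values in yellow cells ranged from -0.02 to 3.02 (Mest) and -1.08 to 0.89 (Impact). The singly coloured values ranged from -0.58 to 0.06 (Sgce), -0.38 to 0.15 (Mest) and -0.01 to 0.41 (Plagl1), and the disomy values from -0.28 to 0.13 (Sgce) and -0.33 to 0.57 (Mest).

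Depth and scatter limit these comparisons. In simulated counts with 4-fold changes, 0% were recovered for yellow ages, 21.0% for summed embryos, 14.1% for singly coloured cells and 14.4% for disomy.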
